A study of Mus musculus with 5 samples.

Results

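CCT3 eCLIP peaks that lie in the last exon of a transcript, or in the only exon of a transcript without introns, made up 2701 of the 10916 peaks in the CCT3 list, or 24.7% (Wilson 95% interval 23.9 to 25.6%). The members were chosen from the authors' annotation text alone: a peak was taken when its annotation was of the exon class and gave exon i of n with i equal to n. Of these, 2242 lay in a last exon and 459 in an only exon. The same rule applied to the CCT3-2 list gave 4052 of 18650 peaks (21.7%, 21.1 to 22.3%), of which 3482 lay in last exons and 570 in only exons. In the PABPC1 list it gave 323 of 14092 peaks (2.29%). The 3 lists together hold 43658 peaks. Wherever shares or their differences carry an interval, it is a 95% interval (Wilson for shares, Newcombe for differences) that covers counting error only, and neighbouring peaks of 1 RNA are not independent.

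The study profiled RNA bound by CCT3 and by PABPC1 in the mouse line GC-2spd(ts), which the labels call spermatocyte cells, and its title singles out binding to the noncoding RNA Tug1. In eCLIP, RNA crosslinked to a protein is cut with RNase I, pulled down with an antibody and sequenced beside an input library that was not pulled down. The groups are 1 PABPC1 sample and 1 PABPC1 input, 2 CCT3 samples (titled CCT3 and CCT3-2) and 1 CCT3 input, all from this 1 line, and no treatment or genetic change is named. Both CCT3 samples carry the same library name, so the CCT3-2 list was read as a second list of peaks and not as an independent replicate, and no test across samples was possible. Depth is unknown, since library read totals were not used here.

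CCT3 is a subunit of TRiC/CCT, the ring-shaped cytosolic chaperonin that folds actin, tubulin and many other newly made proteins. PABPC1 is the cytoplasmic poly(A)-binding protein, which coats the tails of messenger RNAs next to their 3′ ends. The last exon of a coding gene is often its longest: in many C2H2 zinc finger genes it codes for the whole array of fingers, and in most genes it also holds the stop codon and the 3′ UTR. Only-exon transcripts include retrocopies, several transcription factor genes and some nuclear long noncoding RNAs such as Malat1 and Neat1. In the annotation used by the authors each peak has 1 class and 3′ UTRs form a class of their own, so the members of coding genes are last-exon peaks that were not given to a 3′ UTR.

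Markers were read as peaks and not as RNA levels. None of the 15 meiotic spermatocyte, 10 spermatid, 7 Leydig, 9 Sertoli and 11 fibroblast marker genes had a last-exon or only-exon peak in the CCT3 list, and a CCT3 peak of any class was found in 1 of them, a Sertoli marker. The PABPC1 list had last-exon or only-exon peaks in 1 meiotic, 2 Leydig, 1 Sertoli and 3 fibroblast markers. It had a peak of any class in 10 of the 15 meiotic, 9 of the 10 spermatid, 4 of the 7 Leydig, 6 of the 9 Sertoli and 9 of the 11 fibroblast markers. Sox9, a Sertoli marker, had 3 last-exon or only-exon peaks in the CCT3-2 list. PABPC1 peaks were thus found in markers of each of these cell types. For scale, the whole PABPC1 list reached 5396 genes of any type, and the whole CCT3 list reached 2122. RefSeq holds 21900 protein-coding genes. Whether markers carry peaks more or less often than other genes was not tested.

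The sequences used here come from RefSeq tables of miRNAs and of promoter windows on GRCm38.p6, the build of the peak positions. They are shown because few members have bases that can be read there, and because Mir423 is the member with the strongest overlapping PABPC1 peak. The member in Mir423, a miRNA gene, spanned chr11:77078127-77078151 on the minus strand of the gene, at a log2 fold over input of 6.32 (−log10 p 58.7). It covered 25 of the 109 bases of the hairpin, from base 22 to base 46, given in capitals here.
Mir423 hairpin, CCT3 peak: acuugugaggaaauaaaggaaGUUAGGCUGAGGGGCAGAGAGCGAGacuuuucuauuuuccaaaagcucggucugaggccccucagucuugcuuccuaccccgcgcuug
Mir423 hairpin, PABPC1 peak: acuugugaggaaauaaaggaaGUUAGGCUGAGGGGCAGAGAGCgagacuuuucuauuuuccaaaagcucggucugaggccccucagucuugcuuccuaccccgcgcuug
miR-423-5p: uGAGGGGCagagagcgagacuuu
In the mature miR-423-5p the capitals mark the seed, bases 2 to 8, which lies within both peaks. The PABPC1 peak shown had a log2 fold of 10.85, at the ceiling of 400 for −log10 p. The CCT3-2 list had an overlapping peak at a log2 fold of 8.35, placed in the promoter class. All 3 lists thus had a peak on the 5′ arm of this hairpin. A second mature miRNA, miR-1896, lay under a member in the last exon of the long noncoding RNA 4930470G03Rik (chr13:21445213-21445247, log2 fold 3.47, −log10 p 5.73), with 18 of its 22 bases inside the peak and its seed in capitals here.
miR-1896: cUCUCUGAuggugggugaggag
Another miRNA gene, Mir6244, had a member over 35 of the 117 bases of its hairpin (chr9:52115705-52115773, log2 fold 4.43), and its sequence is not shown.

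For members longer than a miRNA, the promoter tables held 1 peak of Nedd4, the gene of an E3 ubiquitin ligase, and 2 of Tulp4, a tubby-family gene named here only because its bases were at hand. All 3 genomic sequences are on the plus strand, the strand of both genes, and the whole peak is shown in lower case.
Nedd4, chr9:72693125-72693177: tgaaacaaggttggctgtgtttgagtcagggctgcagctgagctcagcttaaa
Tulp4, chr17:6137947-6138025: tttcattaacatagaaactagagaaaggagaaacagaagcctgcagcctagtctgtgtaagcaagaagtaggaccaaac
Tulp4, chr17:6138059-6138103: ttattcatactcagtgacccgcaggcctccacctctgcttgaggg
The Nedd4 peak had a log2 fold of 5.91 (−log10 p 36.2), and 49.1% of its bases were G or C. The Tulp4 peaks had log2 folds of 3.22 and 3.25, with 40.5% and 55.6% of G or C.

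Among all peaks of the exon class in the CCT3 list, last and only exons held 51.6% (50.3 to 53.0%, 2701 of 5232). The classes of the 3 lists differed most in 3′ UTRs, which took 79.9% of PABPC1 peaks and 18.0% of CCT3 peaks. The promoter class took 0.925% of CCT3 peaks, 16.2% of CCT3-2 peaks and 13.2% of PABPC1 peaks. Peaks given to that class cannot be members, so the member shares of the 3 lists are not strictly comparable. Members were annotated to transcripts of few exons and of many: 459 to transcripts of 1 exon, 620 (23.0%) of 2 exons, 712 (26.4%) of 3 or 4, 648 (24.0%) of 5 to 9 and 262 (9.70%) of 10 or more. A gene could be assigned to 2677 members, of which 91.8% were in protein-coding genes and 6.91% in long noncoding RNA genes. The share of a chromosome's peaks that were members ran from 16.3% on chromosome 10 to 36.7% on chromosome 19, leaving out chromosome Y with its single peak.

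**Figure D1:**
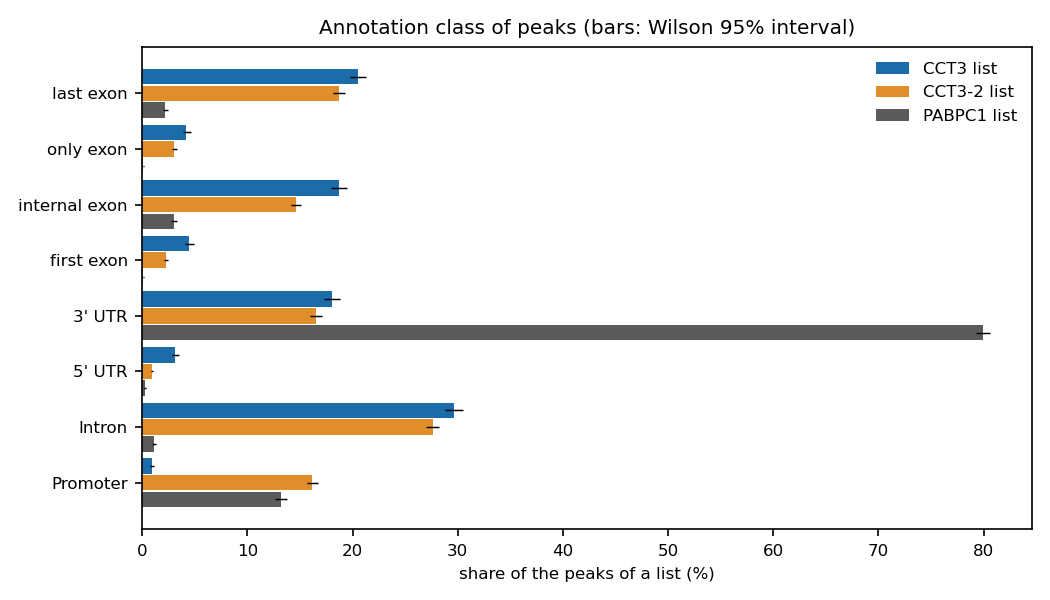
Share of the peaks of each list in each annotation class (horizontal axis, % of 10916 CCT3, 18650 CCT3-2 and 14092 PABPC1 peaks), with Wilson 95% intervals as error bars. Last exons held 20.5% of CCT3 peaks, 18.7% of CCT3-2 peaks and 2.19% of PABPC1 peaks, whereas 3′ UTRs held 79.9% of PABPC1 peaks.

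The last exon is that of the transcript named in the annotation, which need not be the main transcript of the gene. For 423 of the 2677 members with a gene (15.8%), another peak of the lists named a transcript of the same gene with more exons. Transcripts that no exon or intron peak named were not compared, so this count may be too low. The 12 members of Nedd4 and the 5 of Kif11 are not in it. All 14 members of Hnrnpl were in exon 6 of a 6-exon transcript, beside a 14-exon one. All 11 given to Sfpq were in exon 3 of a 3-exon transcript, beside a 10-exon one. The 15 CCT3-2 members at Sfpq were all on the opposite strand, so the 3-exon transcript is not shown to be one of Sfpq. The members of Nedd4, Kif11 and Purg all named 1-exon transcripts. Of only-exon members, 44.9% named a transcript without a gene identifier, against 3.43% of last-exon members. Where such a member lies in the longer transcripts was not tested.

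The folds of members resembled those of the whole CCT3 list in their median. The median log2 fold was 4.03 for members (highest 7.96), 3.80 for first or internal exons, 3.85 for 3′ UTRs, 4.36 for introns and 4.05 for all CCT3 peaks. The median −log10 p was 8.49, against 7.68 for all peaks, and the median width was 57 bases (3 to 296). At a stricter threshold, log2 fold 4 or more and −log10 p 5 or more, 44.5% of members remained beside 41.9% of all CCT3 peaks, a share near that of the list as a whole. The p ceiling of 400 was reached by 37 of 2701 members and by 56 of all 10916 CCT3 peaks. Of the 37, 33 were in Neat1 (12), Malat1 (11) and Hnrnpl (10). Those in Malat1 had modest folds, from 3.06 to 4.58 on the log2 scale.

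The members fell in 764 genes, and a minority of genes held most of them. At the stricter threshold they fell in 378 genes. The median was 2 peaks per gene: 317 genes (41.5%) held 1 peak, while 186 genes with 5 or more held 1648 peaks (61.6%) and 54 genes with 10 or more held 801 (29.9%). In 363 genes (47.5%) every CCT3 peak was a member. Across the 764 genes there were 4883 CCT3 peaks, 54.8% of them members. The CCT3-2 list had members in 905 genes, and 668 genes were in both sets, which is 87.4% of the CCT3 genes and 73.8% of the CCT3-2 genes. All 54 genes with 10 or more members in the CCT3 list also had one in the CCT3-2 list.

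C2H2 zinc finger genes, most of which code for DNA-binding repressors, held the largest share of members among the 6 gene lists examined. Of the 2677 members with a gene, 735 (27.5%, 25.8 to 29.2%) lay in them, beside 13.4% of all CCT3 peaks with a gene. In first or internal exons the share was 7.84% (198 of 2527), a difference of 19.6 percentage points (17.6 to 21.6), and in introns it was 2.74%. In 3′ UTRs, which belong mostly to last exons too, it was 20.3%. The share was carried by last exons (32.1%) and was 4.06% in only exons. The CCT3-2 list gave 27.7% against 9.58%, a difference of 18.1 points. Counting genes, 159 of 764 (20.8%) were zinc finger genes, against 54 of 641 genes with a first or internal exon peak (8.42%). Of genes with a 3′ UTR peak the share was 16.3% (108 of 664), and of all genes with a CCT3 peak 10.7% (228 of 2122). In RefSeq, 505 of 21900 protein-coding genes (2.31%) were zinc finger genes, whether or not they held a peak. Exon lengths were not used here, so these are shares of peaks and not rates per base of exon.

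**Figure D2:**
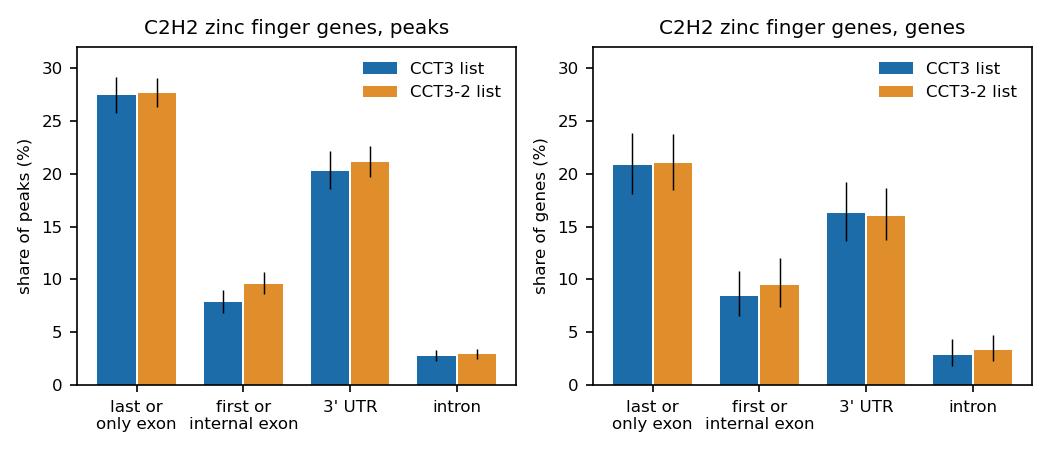
Share of peaks (left) and of genes with a peak (right) that are C2H2 zinc finger genes, in % with Wilson 95% intervals, by annotation class in the CCT3 and CCT3-2 lists. Last or only exons gave 27.5% of CCT3 peaks and 20.8% of genes, against 7.84% and 8.42% in first or internal exons. In 3′ UTRs the CCT3 shares were 20.3% and 16.3%.

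The symbols of the 159 zinc finger genes show which branches were represented. Genes named Zfp numbered 123 of 400 with 571 members (median log2 fold 4.13), and BTB-domain Zbtb genes, whose proteins pair through that domain, 17 of 40 with 87 members (4.17). Zkscan genes numbered 4 of 11 with 12 members and Zscan genes 3 of 16 with 5 members, both of the SCAN-domain family. The other 12 of 38 genes held 60 members. Zinc finger genes made up 17 of the 54 genes with 10 or more members. The median number of members per gene was 3 in zinc finger genes and 2 in the others, and 91.97% and 89.5% of their members overlapped a CCT3-2 peak. A CCT3 peak in the 3′ UTR as well was found in 69 of the 159 zinc finger genes (43.4%, 35.9 to 51.2%) and in 167 of the 605 others (27.6%, 24.2 to 31.3%).

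Zfp292, a large zinc finger transcription factor gene on chromosome 4, held the most members of any gene, 40 of its 41 CCT3 peaks. They covered 2197 bases within a stretch of 6714 bases of exon 8 of 8, at log2 folds from 3.54 to 6.16 with a median of 4.74. The CCT3-2 list had 67 members there (median 4.47, highest 6.64), all on the strand of the gene, and the PABPC1 list had no peak in the gene. CCT3 peaks were thus spread over several kilobases of this exon. Zfp62 held 19 members (median 4.36, highest 5.71) and 24 in the CCT3-2 list. Zbtb21 held 15 (4.53, highest 6.12) and 13 in the CCT3-2 list, where 9 more of its peaks were in the promoter class. Zfp267 held 15 (4.48, highest 6.03) and 18, and Adnp2, a homeobox and zinc finger gene, 15 (3.93, highest 5.25) and 25. Of these 5 genes, Adnp2 alone had a PABPC1 peak, in its 3′ UTR. The highest fold in the family was that of Zfp322a (chr13:23357178-23357239), 7.18 in the CCT3 list and 6.26 in the CCT3-2 list. Zinc finger genes lie in clusters of close paralogs, and the treatment of reads that match several copies is not stated.

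Long noncoding RNA genes held 185 members in 35 genes. This was 6.91% of members, beside 2.26% of first or internal exon peaks and 4.13% of all CCT3 peaks with a gene. In the PABPC1 list they held 14.8% of last-exon and only-exon peaks (47 of 318). There they held 1.39% of first or internal exon peaks and 1.26% of all peaks with a gene. The 3′ UTR class takes peaks of coding genes out of the exon class, and its part in these shares was not tested. Tug1, a spliced noncoding RNA on chromosome 11, held 37 members, 34 in exon 2 of 2 and 3 in an only exon, out of 44 CCT3 peaks. Their log2 folds ran from 3.28 to 7.22 with a median of 4.52, and they covered 1973 bases. The CCT3-2 list had 52 members covering 2050 bases (median 4.62, highest 7.01), all on the strand of Tug1, and all 37 CCT3 members overlapped a CCT3-2 peak. The PABPC1 list had 1 peak, in the last exon, at a log2 fold of 3.77. The highest member, at chr11:3645025-3645143, had log2 folds of 7.22 and 6.83 in the CCT3 lists.

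Other noncoding RNAs held fewer members. The uncharacterised genes 5930430L01Rik, B230354K17Rik and A730017L22Rik held 19, 18 and 17 members, with median log2 folds of 4.12, 3.99 and 4.49. Trp53cor1, the p53-induced lincRNA-p21, held 13 (median 4.35, highest 6.13). None of these 4 had a PABPC1 peak. In A730017L22Rik, 13 of the 17 members overlapped a CCT3-2 peak, and the highest had log2 folds of 6.84 and 6.81.

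Malat1 and Neat1, abundant nuclear RNAs of speckles and paraspeckles, held 11 and 12 only-exon members, all with a −log10 p of 400 (Malat1 was not named by the rule and was chosen after its values were seen). Their median log2 folds were 3.33 and 3.40, below the 4.03 of all members. In the CCT3-2 list Malat1 had 79 members, but these were cut finely: they had a median width of 6 bases, covered 498 bases and formed 5 blocks once peaks within 10 bases were joined. The 11 Malat1 members of the CCT3 list covered 692 bases in 11 blocks. Neat1 had 15 CCT3-2 members covering 221 bases, and 54 further peaks in the promoter class. Neither RNA had a PABPC1 peak.

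Members of the CCT3-2 list were more finely split than those of the CCT3 list. Gaps of 10 bases or less made up 26.6% of the gaps between neighbouring members in that list and 3.29% in the CCT3 list. Joined within 10 bases, the 4052 CCT3-2 members formed 3230 blocks and the 2701 CCT3 members 2639. Tug1 had 35 blocks in each list. Peak numbers of the 2 lists are therefore not on 1 scale, and covered bases or blocks compare better.

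Genes of nuclear RNA-binding and splicing factors held 47 members in 10 of 57 genes, 1.76% of members beside 1.94% of first or internal exon peaks and 1.10% of all CCT3 peaks with a gene. Their median log2 fold was 4.98, beside 4.03 for all members, and 14 of the 47 were in Hnrnpl and 11 in Sfpq. Hnrnpl, which codes for a splicing regulator, held 14 members with log2 folds from 5.52 to 7.96 (median 6.56), among them 5 of the 10 highest of all members. Its highest, chr7:28816630-28816730, had log2 folds of 7.96 and 7.10 in the CCT3 lists. The CCT3-2 list had 21 Hnrnpl members (median 6.50) and 32 further peaks in the promoter class. The PABPC1 list had 3 Hnrnpl peaks, none in a last exon. Sfpq, a paraspeckle protein gene, held 11 members by position (median 4.92, highest 6.46), but all 15 of its CCT3-2 members were on the strand opposite to the gene. Hnrnpll, the paralog of Hnrnpl, held 6 (median 3.92) and had 8 PABPC1 peaks in its 3′ UTR. Rbm12b2 held 5 (median 5.59, highest 7.43), all overlapping CCT3-2 peaks, and has a close paralog in Rbm12b1. Rbm15b held 4 in its only exon (median 3.49).

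**Figure D3:**
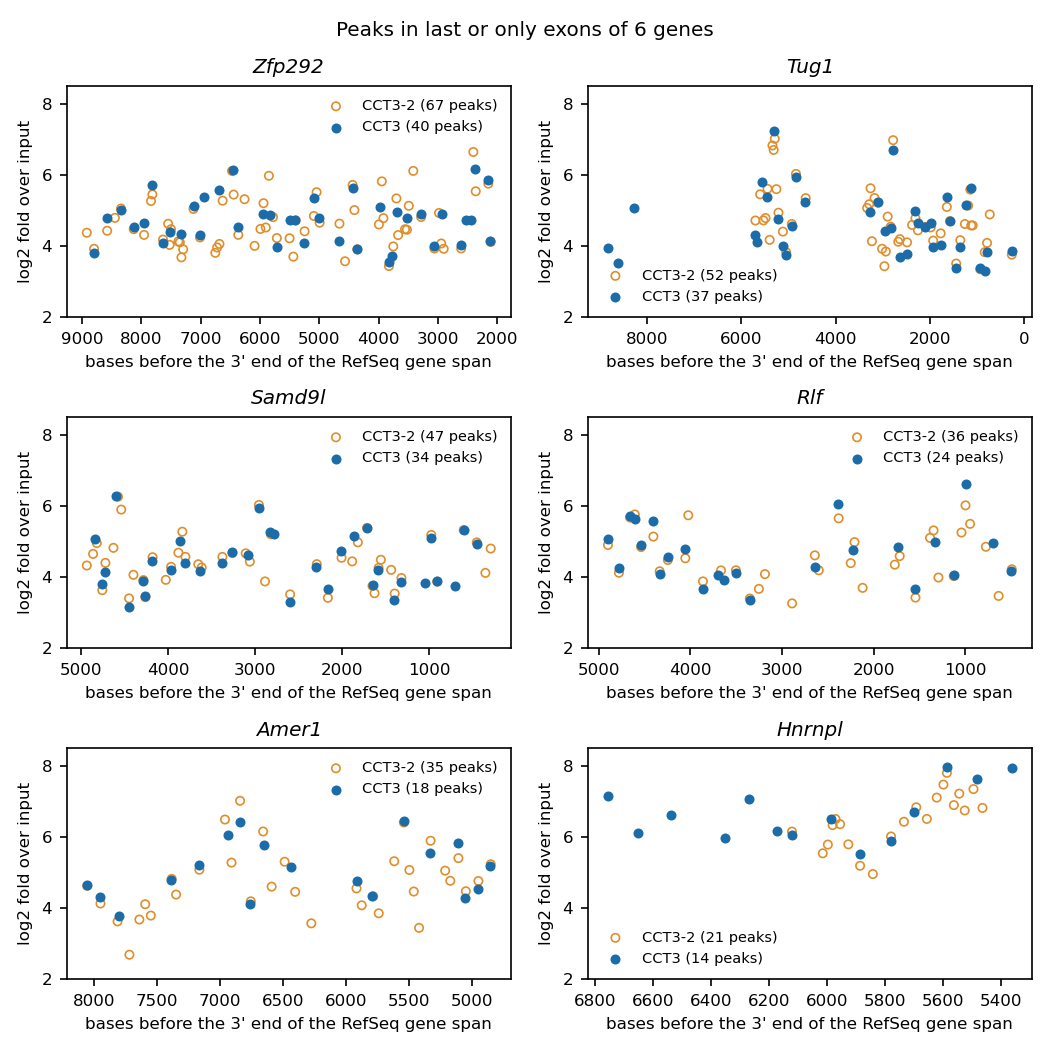
Member peaks of 6 genes in the CCT3 list (filled) and the CCT3-2 list (open): each point is a peak, placed by how many bases it lies before the gene's 3′ end in RefSeq (horizontal axis) and its log2 fold over input (vertical axis). In Zfp292, Tug1, Samd9l and Rlf the peaks spread over several kilobases, with highest CCT3 folds of 6.16, 7.22, 6.29 and 6.62. In Hnrnpl all 14 CCT3 peaks were at 5.52 or more, and in Amer1 the 18 ran from 3.78 to 6.46.

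Several multi-exon genes outside the lists held many members in their last exons. Samd9l, which codes for an interferon-induced growth and virus restriction factor, held 34 members at log2 folds from 3.15 to 6.29 (median 4.33), and 47 in the CCT3-2 list (median 4.43). Rlf, whose product also has zinc fingers although the symbol-based list does not hold it, held 24 (median 4.67, highest 6.62). Thoc2l, a copy of a THO complex gene for mRNA export, held 21 in exon 2 of 2 (median 4.47, highest 6.19). Filip1l held 18 in exon 5 of 5 (median 3.93, highest 5.16). Of these 4, Rlf and Filip1l had 2 PABPC1 peaks each and the other two none.

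Genes known to be coded in 1 coding exon held 65 members in 13 of 43 genes, 2.43% of members beside 1.19% of first or internal exon peaks and 1.43% of all CCT3 peaks with a gene. In the CCT3-2 list they held 1.99% of members beside 1.35% of all peaks with a gene. Amer1, a regulator of Wnt signalling on chromosome X, held 18 members in exon 2 of 2 and 18 more CCT3 peaks in its 3′ UTR. The log2 folds of the members ran from 3.78 to 6.46 (median 4.96), and the CCT3-2 list had 35 members (median 4.60). Mars2, a mitochondrial methionyl-tRNA synthetase gene, and Junb, an AP-1 transcription factor gene, held 9 each (medians 4.45 and 3.72). Foxc1, a forkhead factor gene, held 6 (4.72), and Kbtbd2 held 5 in exon 4 of 4 (3.82). Junb and Kbtbd2 had 1 PABPC1 peak each, in the 3′ UTR, and the other 3 had none.

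Only-exon members were most numerous in Nedd4, Neat1, Ranbp6 and Apol9a, with 12 each, and Purg, with 11. The 12 of Nedd4 ran from 4.08 to 7.81 (median 5.46) and all overlapped a CCT3-2 peak, although the CCT3-2 list placed 5 peaks in the only exon and 18 in the promoter class. Its 11 PABPC1 peaks were all in the 3′ UTR. Purg, a purine-rich element binding protein gene, had a median of 5.48 and a highest value of 6.97. Ranbp6, an importin-like gene, had a median of 3.81 over its only-exon peaks, and Apol9a, a member of a family of near-identical apolipoprotein L genes, 3.52. Trim30d, likewise of a clustered family, held 6 only-exon members, the highest at 7.48 in the CCT3 list and 7.24 in the CCT3-2 list. The 1-exon transcripts named at Nedd4, Apol9a and Trim30d had no gene identifier, so these members were given to the gene by position alone. Other peaks named a 3-exon transcript of Apol9a and a 7-exon one of Trim30d. Whether the 1-exon transcripts belong to these genes was not tested.

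Where the span of the named transcript was in the tables, only-exon peaks leaned to its 5′ side. Over 223 of the 459 only-exon peaks, in 74 transcripts, the median position was 25.3% of the way along the transcript. The 5 equal parts from 5′ to 3′ held 78, 69, 46, 20 and 10 peaks. In the CCT3-2 list, with 264 of 570 only-exon peaks in 57 transcripts, they held 60, 119, 42, 35 and 8. A span was known only where some peak was listed with that transcript as its nearest start. The effect of this choice on the lean was not tested. The promoter class took peaks near a start out of the CCT3-2 count, and the 3′ UTR class took peaks near the end out of both.

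Chromatin and cell cycle genes had few of the members. Chromatin regulator genes held 54 members in 10 of 84 genes. This was 2.02% of members, beside 8.98% of first or internal exon peaks and 3.57% of all CCT3 peaks with a gene. Members were 13.99% of their CCT3 peaks, beside 24.7% of all CCT3 peaks. Asxl1 held 13 in exon 12 of 12 (median 3.57, highest 5.56) and the DNA demethylase gene Tet3 12 in exon 11 of 11 (median 3.85, highest 5.61), with 13 further peaks in other exons. Kmt2e held 7 (median 3.65), Nsd1 6 (3.36) and Mga 5 of 21 CCT3 peaks (3.24). Cell cycle, centromere and DNA repair genes held 11 members in 4 of 49 genes. That was 0.411% of members, beside 4.12% of first or internal exon peaks and 1.48% of all CCT3 peaks with a gene. Myc held 4 in exon 3 of 3 (median 3.29), all overlapping CCT3-2 peaks. The 5 of Kif11 named a 1-exon transcript and none overlapped a CCT3-2 peak. Brca2 and Knl1 held 1 each, out of 36 and 15 CCT3 peaks, both on transcripts shorter than others of the gene.

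Members recurred in the CCT3-2 list as often as other CCT3 peaks did. An overlap of at least 1 base was found for 2436 of 2701 members (90.2%, 89.0 to 91.3%), beside 89.9% of all CCT3 peaks and 90.3% of first or internal exon peaks. The difference from first or internal exon peaks was -0.0917 percentage points (-1.70 to 1.52). In the other direction, 66.5% of CCT3-2 members overlapped a CCT3 peak, beside 64.3% of all CCT3-2 peaks. The CCT3-2 peak sharing most bases was also in a last or only exon for 2135 of the 2436 (87.6%), and for those it named the same transcript. For 279 (11.5%) it was in the promoter class, all within 1000 bases of a listed start. The 265 members without a counterpart had a lower median log2 fold (3.68 against 4.06) and a lower median −log10 p (5.26 against 8.91).

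Fold values of the overlapping pairs were close. The median log2 fold was 4.06 in the CCT3 list and 3.99 in the CCT3-2 list, with a median difference, CCT3-2 minus CCT3, of -0.04 (quartiles -0.22 and 0.12). The 2 folds lay within 0.5 log2 units of each other for 87.1% of pairs and within 1 unit for 97.3%. With 1 library name behind both lists, this describes how far the lists repeat each other and is no measure of biological spread.

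**Figure D4:**
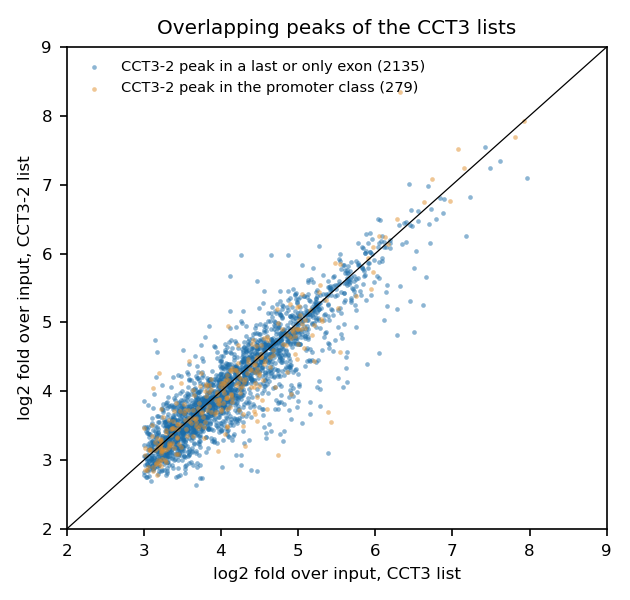
Log2 fold over input of members in the CCT3 list (horizontal) and of the overlapping peak in the CCT3-2 list (vertical); the line marks equal values. Points are the 2135 pairs whose CCT3-2 peak is in a last or only exon and the 279 whose CCT3-2 peak is in the promoter class, and the remaining pairs are not drawn; 97.3% of all 2436 pairs lay within 1 log2 unit of the line.

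The CCT3 table gives no strand, so strand was read from the CCT3-2 list. Of 3892 CCT3-2 members in genes of known strand, 3814 (98.0%, 97.5 to 98.4%) were on the strand of the gene, beside 96.8% of all CCT3-2 peaks and 98.6% of first or internal exon peaks. The 78 on the opposite strand were in 22 genes. Besides the 15 of Sfpq, they included 6 of 7 CCT3-2 members in Btbd6 and 4 of 4 in Hspa1l (Btbd6 and Hspa1l lie outside the naming rule and were picked with their values known). The 11 Sfpq members of the CCT3 list, all of which overlapped CCT3-2 peaks, therefore cannot be assigned to the Sfpq RNA from position alone.

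PABPC1 peaks hardly coincided with members. Only 10 of 2701 (0.370%, 0.201 to 0.680%) shared a base with a PABPC1 peak, beside 0.669% of all CCT3 peaks. The share was 0.988% in first or internal exons (25 of 2531), a difference of -0.618 points (-1.11 to -0.174), and 1.68% in 3′ UTRs. In introns it was lower, at 0.124% (4 of 3235). The member rule leaves out the 3′ UTR class, which held 79.9% of PABPC1 peaks, while last and only exons held 2.29%. How far the annotation class sets the overlap was not tested. With the stricter threshold in both lists 1 of 1201 members overlapped, and with a 50% reciprocal overlap 4 of 2701. The CCT3-2 list gave 15 of 4052 against 36 of 3142, a difference of -0.776 points (-1.24 to -0.378). In introns of that list the share was 0.369% (19 of 5148), beside 0.370% of its members. The 10 were in Mir423, Errfi1, Trim26, Sox12, Nsrp1, Calr, Hmgn5, Utp3, Nat10 and Gpatch11. Besides Mir423, none of their members had a log2 fold above 4.05, the value in Errfi1, a feedback inhibitor of the EGF receptor. The longest shared stretch was 95 bases, in Trim26 (log2 folds 3.84 for CCT3 and 3.43 for PABPC1). In Calr, the gene of the ER chaperone calreticulin, the CCT3 peak had a log2 fold of 3.54 with a −log10 p of 400, and 2 PABPC1 peaks overlapped it. Those of Nat10 and Gpatch11, with −log10 p of 3.33 and 3.08, had no CCT3-2 peak.

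Genes with members also had PABPC1 peaks less often than genes with CCT3 peaks in other exons. A PABPC1 peak anywhere in the gene was found for 216 of 764 genes (28.3%, 25.2 to 31.6%), beside 32.8% of all genes with a CCT3 peak and 40.3% (258 of 641) of genes with a first or internal exon peak. With the stricter threshold in both lists, which kept 6974 of the 14092 PABPC1 peaks, the share for genes with members was 15.3% (58 of 378 genes). The other gene sets were not compared at that threshold. Leaving out genes with both, the shares were 26.9% (170 of 633) and 41.6% (212 of 510), a difference of -14.7 points (-20.2 to -9.19). Among zinc finger genes with members it was 18.2% (29 of 159), among the others 30.9% (187 of 605). Of the 520 PABPC1 peaks in the 764 genes, 448 (86.2%) were in 3′ UTRs. No RNA level was used here, so these shares are not adjusted for abundance.

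The 323 PABPC1 peaks of the same annotation class lay in 246 genes, with no more than 5 in a gene. Of these genes, 14 also had a CCT3 member, as did 216 of the 5396 genes with a PABPC1 peak of any class. Among the 14 were Tug1 (37 CCT3 members and 1 PABPC1 peak), Utp3 (1 and 2), Nsrp1 (4 and 1) and Errfi1 (2 and 1). Sfpq is counted by position, and its 2 PABPC1 peaks were on the strand of the gene, unlike its CCT3-2 members. None of the 318 such PABPC1 peaks with a gene was in a C2H2 zinc finger gene, which allows a share of up to 1.19% by the Wilson interval. The share over all PABPC1 peaks with a gene was 1.33% (184 peaks in 91 zinc finger genes), somewhat above that limit. In first or internal exons it was 0.231%, below the limit.

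Within last and only exons the 2 proteins' peaks lay at different distances from the 3′ end. The end of the named transcript was known for 899 CCT3 members (33.3%) and 83 PABPC1 peaks (25.7%). The median distance from peak midpoint to that end was 2962 bases for CCT3, 3176 for CCT3-2 (1346 members) and 390 for PABPC1. Within 500 bases of the end lay 54 CCT3 members (6.01%, 4.63 to 7.76%) and 50 PABPC1 peaks (60.2%, 49.5 to 70.1%), a difference of 54.2 points (43.3 to 64.2). Measured to the RefSeq gene end, 2.31% of 2599 CCT3 members and 45.9% of 290 PABPC1 peaks were this near. In zinc finger genes, 2.60% of 192 CCT3 members lay within 500 bases of the transcript end. Because the 3′ UTR class removes the ends of coding transcripts, long noncoding RNA genes were set apart. There 12.2% of 74 CCT3 members (6.53 to 21.5%) and 70.6% of 17 PABPC1 peaks (46.9 to 86.7%) were within 500 bases of the end. These peaks come from few RNAs: all 185 such CCT3 members lay in 35 genes and all 47 such PABPC1 peaks in 27. They are not independent of each other.

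**Figure D5:**
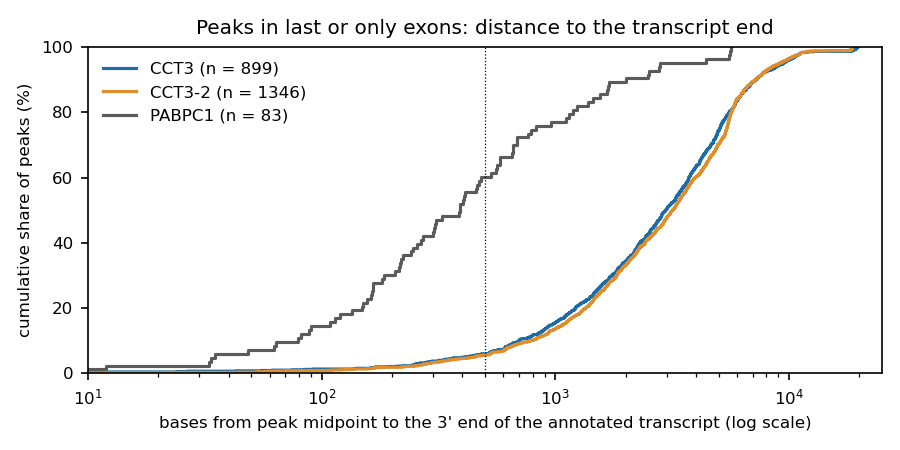
Cumulative share of last-exon and only-exon peaks (vertical axis, %) by distance in bases from the peak midpoint to the 3′ end of the named transcript (horizontal axis, log scale), for 899 CCT3, 1346 CCT3-2 and 83 PABPC1 peaks; the dotted line marks 500 bases. At that line the CCT3 lists had reached 6.01% and 5.57%, and PABPC1 60.2%.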

How the data were processed

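Each of the 3 tables is the authors' peak list for 1 sample, with position, fold, p and annotation per peak, from eCLIP libraries of GC-2spd(ts) cells. Per the submitters' processing notes, bcl2fastq 2.20 and the mm10 build were used; the sources used here give no aligner, peak caller, annotation tool or duplicate handling. The authors computed the deposited −log10 p and log2 fold of each peak. The CCT3 table names both columns, per the file headers; in the other tables they have no names and were identified from their ranges. The deposited −log10 p values stop at 400. All CCT3 and PABPC1 peaks had both values at 3 or more, as did 83.7% of CCT3-2 peaks. The values describe peaks within a list. Peak width is from the deposited tables.

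Members and their class follow the deposited annotation text. The gene is that of its gene identifier (2418 members), otherwise the RefSeq GRCm38.p6 gene at the position (259); 24 had none. Distances used transcript spans given in the tables and strands from RefSeq. Overlaps ignored strand, which the CCT3 table lacks. Shares have Wilson and differences Newcombe 95% intervals (Python 3.11.15, numpy 2.4.6, pandas 2.3.3, scipy 1.17.1; figures with matplotlib 3.10.9). No p-values were computed, since there is 1 list per protein and both CCT3 samples share a library name. PCR reads without molecular identifiers are not independent molecules, and their use is not given here. The overlap count was tested on simulated data and found all 200 overlaps placed.

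Named genes are Tug1, the 12 genes with most members, the genes of the 10 highest folds, the 5 with most only-exon members, the 5 multi-exon genes outside the lists with most members, up to 5 per gene list, and up to 10 with a PABPC1 overlap. One gene that the rule names is not reported here. Members, gene lists and this rule were chosen with earlier results of these data known. Alternatives were a stricter threshold, the CCT3-2 list, covered bases, merging, 50% reciprocal overlap, the listed nearest-start gene, genes counted, peaks beyond 1000 bases of a start, and leaving out Tug1; leaving out Malat1 or Hnrnpl, the fullest transcripts and the RefSeq gene end were added after seeing the data. The input samples were not analysed here.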

Additional observations from a re-analysis of the deposited data

How the results depend on the processing

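The 11 results were recomputed in 43 ways: 21 values kept within the reported interval (for the gene count, within 1.5 times) and 22 did not, for causes that were not tested. With peaks of log2 fold 4 or more and −log10 p 5 or more, members were 26.2% of CCT3 peaks, 57.2% of exon-class peaks and in 378 genes; 31.3% lay in zinc finger genes, 83.7% overlapped a CCT3-2 peak, 0.0833% a PABPC1 peak (1 of 1201), 15.3% of genes had a PABPC1 peak, and the median log2 fold was 4.71, which the threshold itself raises. The CCT3-2 list gave 21.7% and 56.3%, an only-exon share of 14.1% (12.4% without Malat1) and a median log2 fold of 3.86. Beyond 1000 bases of a start, members were 26.0% of peaks. The zinc finger share was 22.7% by the listed nearest-start gene and 20.8% when genes were counted. It was 30.1% over the fullest transcripts, meaning those with the most exons among the transcripts that peaks of the gene named. A 50% reciprocal overlap gave 76.5% with CCT3-2 and 0.148% with PABPC1, and CCT3-2 peaks with both values at 3 or more 85.7%. The highest peak of each gene had a median of 4.29 on the log2 scale, and 2.31% of members were within 500 bases of the RefSeq gene end. Leaving out Tug1, Malat1 or Hnrnpl moved none of the CCT3 values recomputed that way outside its interval. No paired analysis was possible because there is 1 list per protein and no result comes from a test across samples. Read depth is unknown, so peaks missed for lack of reads cannot be counted.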
